A study of Mus musculus with 6 samples.

Results

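The d4 family consists of the 4 genes Dpf1, Dpf2, Dpf3 and Phf10. They were taken by symbol from the 17558 genes of the expression table, in which they fill 17 of 57920 transcript rows. Dpf1 has 9 rows, Dpf2 has 2, and Dpf3 and Phf10 have 3 each. The 6 RNA-seq libraries came from C2C12, an immortalized mouse myoblast line that stops dividing and fuses into myotubes when growth serum is withdrawn. Cells had grown in 10% fetal bovine serum and were harvested 48 h after the change to 2% horse serum with insulin, transferrin and selenium, which all groups shared. The groups differ in a stably carried short hairpin RNA, with 2 libraries each: scrambled (shScr), directed at isoform Pkm1 of the enzyme pyruvate kinase (shPkm1), or directed at its isoform Pkm2 (shPkm2). The labels state neither whether a line is 1 clone or a pool nor whether the libraries of a group came from separate cultures, so p-values measure the spread between these libraries, which may be technical.

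The d4 proteins are subunits of the SWI/SNF (BAF) complexes, which use ATP to move nucleosomes and open chromatin. All of them carry tandem PHD fingers; those of the Dpf proteins bind acylated lysines on histone H3. Canonical BAF (cBAF) takes up a Dpf protein next to Arid1a or Arid1b, whereas the polybromo form (PBAF) holds Phf10 together with Arid2, Pbrm1 and Brd7. Another form, ncBAF, has no d4 subunit. Dpf2 is the widely expressed member, Dpf1 is best known from neurons, Dpf3 from heart and skeletal muscle, and Phf10 from dividing progenitors.

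The 2 Dpf2 transcripts of the table are shown first, because the balance between them differed more between the groups than the level of the gene. In the GENCODE M21 annotation (GRCm38) their coding parts share every exon except exon 7, a coding exon of 42 bases at chr19:5903731-5903772 on the minus strand. NM_001291078.1 holds this exon and has 12 exons and 405 codons, while NM_011262.5 skips it and has 11 exons and 391 codons. The exon adds 14 codons, keeps the reading frame and brings no stop codon, and it enters after 212 whole codons. The stretch around the junction is printed with 30 bases of each neighbouring exon in lower case and exon 7 in capitals.
With exon 7: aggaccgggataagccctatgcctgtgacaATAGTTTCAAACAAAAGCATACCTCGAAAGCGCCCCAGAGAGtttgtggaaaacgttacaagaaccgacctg
Without exon 7: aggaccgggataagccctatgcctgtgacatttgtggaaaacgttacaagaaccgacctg
The reading frames of both were searched for the C2H2 zinc finger pattern, with 2 to 4 residues between the cysteines, 12 between cysteine and histidine, and 3 to 5 between the histidines. The reading frame without exon 7 held 1 match, over codons 211 to 232, which spans the junction. The reading frame with exon 7 held 0 matches. A match describes the letters and is no measurement of the protein.

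Several facts of the whole series bear on the results. Libraries held 18216896 to 19796036 estimated counts, and the replicates of each group correlated at r = 0.988 to 0.994 across genes, which are not independent replicates. They still differed by more than sampling noise, most in shScr, with a chi-square of 30.8 per degree of freedom against 5.94 in shPkm1 and 6.66 in the shPkm2-labelled libraries. Total Pkm in shPkm1 differed from shScr by a log2 change of -0.63 (edgeR adjusted p = 0.00107), which was -0.24 and no call with limma on log2(TPM + 1) (adjusted p = 0.124). The Pkm2 transcript NM_011099.3 stood at 1073 and 1517 TPM in shScr and at 2700 and 2630 TPM in the shPkm2-labelled libraries, so the targeted isoform was not lower there and that group is called by its label throughout. The Pkm1 transcript NM_001253883.1 was at 546 and 589 TPM in shScr, 243 and 218 in shPkm1, and 254 and 254 in the shPkm2-labelled libraries, so these were near shPkm1 in that isoform. The 8 myotube markers, Myog and Ckm among them, summed to 30258 and 23451 TPM in shScr, 11752 and 12692 in shPkm1, and 984 and 907 in the shPkm2-labelled libraries. The 8 proliferation markers ran the other way, with sums of 187 and 236, 444 and 427, and 1352 and 1270 TPM. In such bulk samples fewer cells of a type and less RNA per cell cannot be told apart. How far either marker list bears on the d4 genes was not tested.

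Per unit of transcript length (TPM, a share of all transcripts corrected for their length), the family in control myotubes was almost entirely Dpf2 and Phf10 RNA. In shScr Dpf2 stood at 62.6 ± 1.25 TPM and Phf10 at 62.1 ± 1.64 TPM (SD, n = 2), which does not differ beyond their spread. Dpf1 followed at 2.90 ± 1.01 TPM and Dpf3 at 0.635 ± 0.247 TPM. Their order separated in the other groups, in which Phf10 lay above Dpf2 in all 4 libraries. In shPkm1 Phf10 reached 128 ± 7.40 TPM against 58.9 ± 3.66 TPM for Dpf2. In the shPkm2-labelled libraries it was 86.6 ± 4.33 TPM against 57.2 ± 0.148 TPM.

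**Figure D1:**
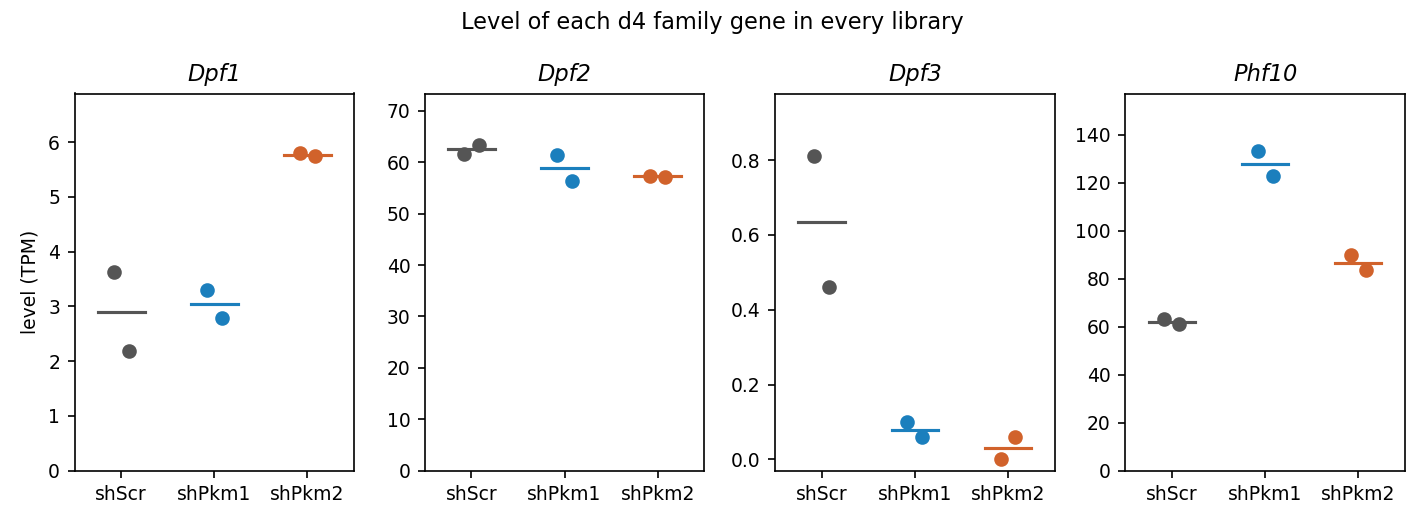
Level in TPM of each d4 family gene in every library (points) with the group mean (line), each panel on its own scale; shPkm2 is the group as labelled. Phf10 runs from 61.0 to 133 TPM, Dpf2 stays between 56.3 and 63.4 TPM, and Dpf3 is under 1 TPM everywhere.

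Dpf2, whose protein is known as requiem, is the widely expressed d4 subunit of cBAF. In shScr it made up 93.3% and 96.0% of the summed TPM of Dpf1, Dpf2 and Dpf3. Its TPM was 61.7 and 63.4 in shScr, 61.5 and 56.3 in shPkm1, and 57.4 and 57.1 in the shPkm2-labelled libraries. On this scale the groups lie close together, and the higher shPkm1 library is within 1 TPM of the lower control. The estimated counts were 2482 and 2535 in shScr, 2044 and 2086 in shPkm1, and 2061 and 2137 in the shPkm2-labelled libraries, so both hairpin groups were below both control libraries. For the test, counts were scaled by TMM, which sets the typical gene to no change. On that scale Dpf2 fell in shPkm1 by 0.49 on the log2 scale (SE 0.0969, edgeR quasi-likelihood adjusted p = 0.000703), a 1.40-fold lower level than in shScr. It also fell in the shPkm2-labelled libraries, by 0.59 (SE 0.0970, edgeR adjusted p = 0.000113). Between those and shPkm1 the log2 fold change was -0.11 with a 95% interval of -0.32 to 0.10 (edgeR adjusted p = 0.372), which is no call.

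The fall of Dpf2 depended on the scale. With library totals in place of TMM the log2 fold changes were -0.29 (edgeR adjusted p = 0.0211) and -0.27 (edgeR adjusted p = 0.0275). With limma on log2(TPM + 1) they were -0.09 (adjusted p = 0.483) and -0.13 (adjusted p = 0.298), and neither passed. These scalings move the median of all tested genes, by 0.19 for shPkm1 and 0.32 for the shPkm2-labelled libraries with library totals, and by 0.31 and 0.36 with log2(TPM + 1). Dpf2 was thus lower relative to the typical gene, and close to level as a share of all transcripts.

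The make-up of Dpf2 RNA differed more between the groups than its amount. The transcript with exon 7 stood at 44.9 and 40.9 TPM in shScr, at 19.97 and 21.2 TPM in shPkm1, and at 5.47 and 8.13 TPM in the shPkm2-labelled libraries. It made up 73.0% and 64.7% of the Dpf2 estimated counts in shScr, 32.8% and 37.9% in shPkm1, and 9.64% and 14.4% in the shPkm2-labelled libraries. The means were 68.9% ± 5.84, 35.4% ± 3.65 and 12.02% ± 3.36 (SD, n = 2), and no library of one group reached the range of another. The transcript without exon 7 ran the other way, with 16.8 and 22.6 TPM in shScr, 41.5 and 35.1 TPM in shPkm1, and 51.9 and 49.0 TPM in the shPkm2-labelled libraries. The form that skips the exon, with its C2H2 pattern across the junction, was the minor form in shScr and the major one in both other groups. Across the groups this share ran in the order of the myotube markers. The proliferation markers ran in the reverse order, as did the 6 osteoblast markers, which summed to 174 and 236, 577 and 555, and 2920 and 2809 TPM, mostly Spp1, with the defining marker Ibsp at most at 3 counts. Their part in the exon 7 share was not tested.

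**Figure D2:**
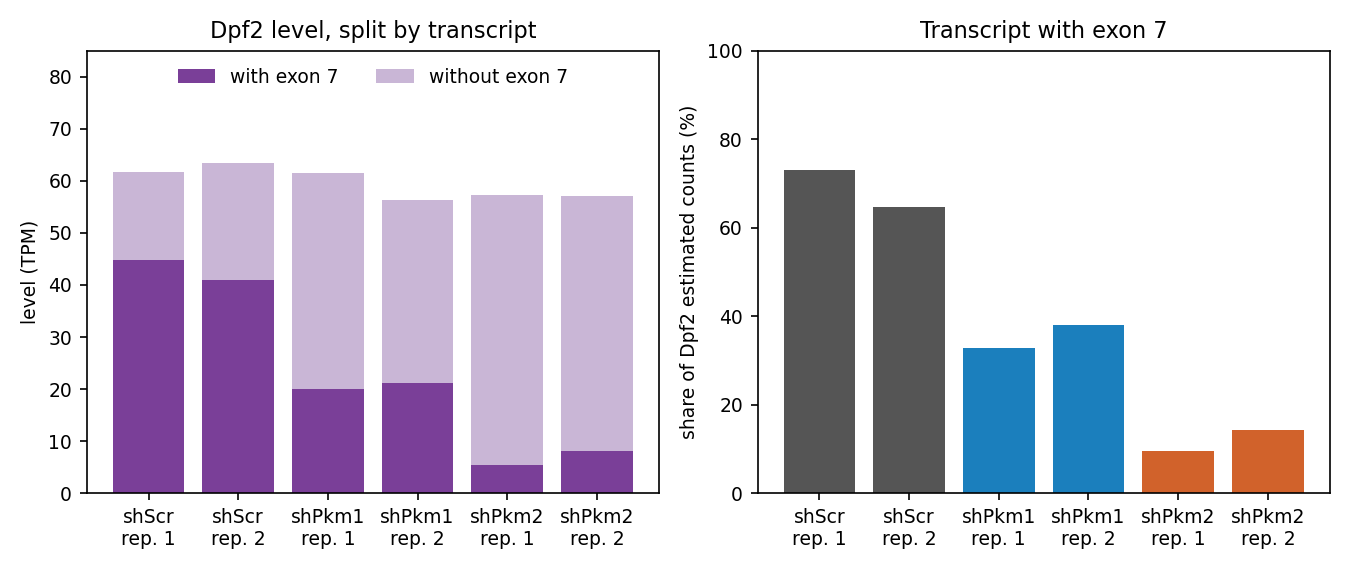
Left, Dpf2 level in TPM in every library, stacked by transcript with and without exon 7; right, share in percent of Dpf2 estimated counts in the transcript with exon 7, with shPkm2 as labelled. The bars on the left keep nearly the same height while the share on the right steps from 73.0% and 64.7% to 32.8% and 37.9% and to 9.64% and 14.4%.

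Each transcript was also tested by itself with the edgeR quasi-likelihood test over 33433 transcripts. The transcript NM_001291078.1, with exon 7, differed in shPkm1 from shScr by a log2 change of -1.42 (SE 0.243, adjusted p = 0.0320), which is 2.67-fold. The difference in the shPkm2-labelled libraries was -3.07 (SE 0.260, adjusted p = 0.00358), which is 8.43-fold. Between those and shPkm1 the log2 fold change was -1.66 (SE 0.250, adjusted p = 0.0281). NM_011262.5, without the exon, was higher by 0.61 (SE 0.121, adjusted p = 0.0457) in shPkm1 and by 0.94 (SE 0.121, adjusted p = 0.0103) in the shPkm2-labelled libraries. Of all transcripts tested, 10.8% passed in shPkm1, 17.2% in the shPkm2-labelled libraries and 7.91% between the hairpin groups. Leaving out any 1 of the 4 libraries of shScr and shPkm1 lost the shPkm1 call of NM_001291078.1 (adjusted p between 0.0723 and 0.180), while its call in the shPkm2-labelled libraries was kept in all 11 alternatives. Between the hairpin groups its call was kept without shPkm2 replicate 2 and lost without any other library (adjusted p between 0.0569 and 0.139). NM_011262.5 kept its shPkm1 call without shScr replicate 2 and lost it without any other library (adjusted p between 0.106 and 0.209). Its call in the shPkm2-labelled libraries was lost without either of them (adjusted p = 0.0678 and 0.0666).

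Whether the transcripts of 1 gene moved unequally was tested with edgeR's diffSpliceDGE, which sets the log2 fold change of a transcript against that of its gene. NM_001291078.1 fell by 2.51 on the log2 scale relative to Dpf2 in the shPkm2-labelled libraries against shScr (diffSpliceDGE adjusted p = 0.00118). Against shPkm1 it fell by 1.54 (diffSpliceDGE adjusted p = 0.0294). NM_011262.5 had a usage call in the shPkm2-labelled libraries against shScr, at 1.503 (diffSpliceDGE adjusted p = 0.0106), which was lost without any 1 of the 4 libraries of shScr and shPkm1 (adjusted p between 0.0529 and 0.126). Against shPkm1 that transcript passed neither the usage test (0.44, diffSpliceDGE adjusted p = 0.828) nor the transcript test (0.33, edgeR adjusted p = 0.205). In shPkm1 against shScr neither passed, with relative changes of -0.97 for NM_001291078.1 (diffSpliceDGE adjusted p = 0.213) and 1.06 for NM_011262.5 (diffSpliceDGE adjusted p = 0.110). These tests called 0.411% of transcripts in shPkm1 against shScr, 1.1% in the shPkm2-labelled libraries against shScr, and 0.526% between the hairpin groups. A second method chosen after seeing the data, limma's diffSplice on voom values, gave log2 changes of NM_001291078.1 against the other transcript of -2.02 (adjusted p = 0.00403), -4.04 (adjusted p = 5.68e-05) and -2.03 (adjusted p = 0.00982). The call of NM_001291078.1 between the hairpin groups was lost in diffSpliceDGE when any 1 of the 6 libraries was left out (adjusted p between 0.0624 and 0.293).

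The size of the shift was set beside that of other genes as a description. Among 6727 genes with at least 2 transcript rows and 100 counts in each library, the largest change in share of any transcript had a median of 5.53 percentage points in shPkm1 and 5.94 in the shPkm2-labelled libraries. The Dpf2 transcript with exon 7 changed by -33.5 and -56.8 points. A change at least as large was seen in 102 genes (1.52%) and in 25 genes (0.372%). Between the hairpin groups its change was -23.3 points, which 278 genes (4.13%) reached. Among the other SWI/SNF subunits, 16 had at least 2 tested transcripts, and diffSpliceDGE made a usage call in shPkm1 for 1, Bicral, where 1.32% of 7704 genes had one. In the shPkm2-labelled libraries it called 2, Bicral and Smarcc2, against 3.13% of genes. It called 0 between the hairpin groups against 1.67% of genes, and at an unadjusted p under 0.05 it had 8, 6 and 4 of the 16 in these comparisons, against 19.7%, 21.4% and 18.3% of genes. limma's diffSplice called 0, 2 and 0 of the 16, against 2.84%, 6.23% and 2.54% of genes. The division of reads between the Dpf2 transcripts is the submitters' estimate, and its error is not in these tests.

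Phf10, also called BAF45a, is the d4 subunit of PBAF. Its TPM was 63.3 and 61.0 in shScr, 133 and 123 in shPkm1, and 89.7 and 83.6 in the shPkm2-labelled libraries. The estimated counts were 1262 and 1214, 2232 and 2274, and 1620 and 1568, so the groups do not overlap in either unit. How many other genes separate the groups in this way was not counted. Of all tested genes, 63.1% were called in shPkm1 and 68% in the shPkm2-labelled libraries against shScr, and 53% between the hairpin groups. Phf10 rose in shPkm1 by a log2 change of 0.65 (SE 0.102, edgeR adjusted p = 0.000102) on the TMM scale, which is 1.57-fold. This call was kept in all 15 alternatives, in which the log2 fold change lay between 0.55 and 1.04. It was lower in the shPkm2-labelled libraries than in shPkm1, at a log2 change of -0.63 (SE 0.101, edgeR adjusted p = 0.000161), again in all 15 alternatives. The summed TPM of 6 fibroblast markers was also highest in shPkm1, at 373 and 385 in shScr, 2641 and 2600 in shPkm1, and 70.5 and 63.9 in the shPkm2-labelled libraries. Most of each sum was Col1a1, at 2585 and 2552 TPM in shPkm1, whereas Pdgfra was at 8.44 and 8.34 TPM there and at 10.2 and 9.47 TPM in the shPkm2-labelled libraries. Thy1 and Tcf21 had at most 3 counts in every library. Their part in the Phf10 values was not tested.

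The libraries labelled shPkm2 gave no call for Phf10 against shScr on the TMM scale, where the log2 fold change was 0.02 with a 95% interval of -0.20 to 0.25 (edgeR adjusted p = 0.841). With library totals it was 0.35 (edgeR adjusted p = 0.00751) and with limma on log2(TPM + 1) it was 0.47 (adjusted p = 0.00133), both of which passed. The level in these libraries was thus higher as a share of all transcripts, while relative to the typical gene no difference was found.

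One row, NM_024250.4, held 89.0% to 91.8% of the Phf10 estimated counts in the 6 libraries. It followed the gene, with a log2 fold change of 0.69 (edgeR adjusted p = 0.0202) in shPkm1 and 0.08 (edgeR adjusted p = 0.691) in the shPkm2-labelled libraries. At the level of this transcript the shPkm1 call was lost without any 1 of the 4 hairpin libraries (edgeR adjusted p between 0.0663 and 0.127). The predicted transcript XM_011246635.2 had 5.30 and 15.9 estimated counts in shScr, 90.5 and 53.3 in shPkm1, and 59.7 and 40.5 in the shPkm2-labelled libraries. The control libraries were the lowest of the 6, but no usage call was made (adjusted p = 1 with diffSpliceDGE in both comparisons with shScr, and 0.378 and 0.332 with limma's diffSplice). The remaining row, XM_006524960.3, stayed between 74.9 and 164 estimated counts.

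Phf10 lies on the minus strand of chr17:14944994-14961260 (GRCm38). Of its 4914 annotated exon bases, 470 (9.6%) are shared with the plus-strand gene 1600012H06Rik. Strandedness is not given in the sources used here, so reads from the shared bases cannot be told apart. That gene stood at 13.8 and 15.7 TPM in shScr, 24.7 and 20.5 TPM in shPkm1, and 16.8 and 19.1 TPM in the shPkm2-labelled libraries, well under Phf10 in every library. Its part in the Phf10 values was not tested. Antisense genes share 1.8% of the exon bases of Dpf1 and 1.2% of those of Dpf2.

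Dpf1, or BAF45b, takes the d4 place of BAF in postmitotic neurons. Its TPM was 3.62 and 2.19 in shScr, 3.30 and 2.79 in shPkm1, and 5.81 and 5.74 in the shPkm2-labelled libraries, where both were above the other 4. The estimated counts behind these values were 102 and 64, 74 and 72.0, and 147 and 148. Dpf1 was higher in the shPkm2-labelled libraries than in shPkm1 by a log2 change of 0.88 (SE 0.238, edgeR adjusted p = 0.00691), which is 1.84-fold. Without shPkm1 replicate 2 this call was lost at 0.83 (edgeR adjusted p = 0.0657).

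Against shScr no call was made for Dpf1 on the TMM scale. The log2 fold change was -0.40 with a 95% interval of -0.94 to 0.14 in shPkm1 (edgeR adjusted p = 0.180), and with limma on log2(TPM + 1) its sign turned, to 0.07 (adjusted p = 0.739). In the shPkm2-labelled libraries it was 0.48 with an interval of -0.02 to 0.99 (edgeR adjusted p = 0.0838). The control libraries differ in Dpf1, and the outcome moved with them. Without shScr replicate 1 the values became 0.07 in shPkm1 and 0.95 in the shPkm2-labelled libraries (edgeR adjusted p = 0.000263 for the latter). Without shScr replicate 2 they became -0.77 (edgeR adjusted p = 0.00216) and 0.11. Library totals and TPM also gave a call in the shPkm2-labelled libraries, with log2 fold changes of 0.81 (edgeR adjusted p = 0.00580) and 0.82 (limma on log2(TPM + 1), adjusted p = 0.00135).

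Neuron markers were set beside Dpf1. The 8 markers summed to 72.3 and 91.7 TPM in shScr, 72.0 and 75.8 TPM in shPkm1, and 494 and 508 TPM in the shPkm2-labelled libraries. Most of the last sum was Stmn2, at 434 and 452 TPM, while the defining markers Rbfox3 and Snap25 had at most 3 counts in every library. Of 5 markers tested, 3 were higher and 1 lower in the shPkm2-labelled libraries than in shPkm1, where 53% of all genes were called, and their part in the Dpf1 difference was not tested.

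Of the 9 Dpf1 rows, NM_013874.2 held 41.5% to 77.9% of the estimated counts. The other 8 are predicted transcripts with at most 44.8 estimated counts in any library, and all of them were at 0 in at least 1 library. The filter left 4 of the 9 rows, NM_013874.2, XM_006540035.3, XM_006540032.2 and XM_006540041.2, and none of these 4 passed the transcript test or the usage test in any comparison. The whole gene had a mean of 101 counts, and what difference could be detected at that depth was not measured.

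Dpf3, or BAF45c, is the d4 subunit tied to heart and skeletal muscle. It had 17 and 9 estimated counts in shScr, 2 and 1 in shPkm1, and 0 and 1 in the shPkm2-labelled libraries. Both control libraries lay above all others, which were at or under the floor of 3 counts. Its TPM was 0.81 and 0.46 in shScr and at most 0.10 in the other libraries. Against that floor in each library, the shPkm1 level was at least 4.39-fold lower than the control mean, and the level in the shPkm2-labelled libraries at least 4.40-fold lower. Set against the lower control library alone, the bounds are 2.95-fold for both.

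Dpf3 did not pass the filter on low counts and was not part of the main test. In a fit of 16368 genes without that filter, its log2 fold change passed in shPkm1 (edgeR adjusted p = 0.00381) and in the shPkm2-labelled libraries (edgeR adjusted p = 0.000574). Without shScr replicate 1 these became adjusted p = 0.0516 and 0.0137 in the same edgeR test. The control counts fell mostly on NM_001267626.1, with 12.1 and 7.33 estimated counts, and that row was at 0 in the 4 other libraries. NM_001267625.1 had 4.92 and 1.67 estimated counts in shScr, 1 and 0 in shPkm1, and 0 in both shPkm2-labelled libraries. NM_058212.2 was at 0 in both control libraries, at 1 in both shPkm1 libraries, and at 0 and 1 in the shPkm2-labelled libraries. The floor is a fixed 3 counts, and the bounds take the control counts as exact. They thus include neither counting error nor the spread between libraries.

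Myotube markers were set beside Dpf3. All 8 were called lower in shPkm1 than in shScr, where 31.4% of all tested genes were lower. All 8 were also lower in the shPkm2-labelled libraries, where 34.2% of all tested genes were. Dpf3 was at or under the floor in both hairpin groups, so it cannot be followed between them. The part of the markers in the Dpf3 values was not tested. One of the calls, that of Des in shPkm1 (-0.51), was lost with limma on log2(TPM + 1), at -0.12 (adjusted p = 0.339). Of 8 genes named in work on Dpf3 in heart and muscle, 7 were tested. In shPkm1 2 were higher, Heyl, a Notch target, at 1.54 and the chromatin regulator Jarid2 at 0.41, and 3 were lower, led by the muscle transcription factor Mef2c at -2.25 and the thin filament protein Lmod2 at -0.89. With limma on log2(TPM + 1) Lmod2 lost this call at -0.44 (adjusted p = 0.0571). Mef2c stood at 5.07 and 1.34 TPM in shScr and at 0.96 and 0.95 TPM in shPkm1, so the size of its fall depends on the control library. In the shPkm2-labelled libraries 1 was higher, Jarid2 at 0.70, and 6 were lower, led by Lmod2 at -6.93 and Mef2c at -6.02. Between the hairpin groups 0 were higher and 5 lower, again led by Lmod2 at -6.04 and Mef2c at -3.77. Mef2c was near the floor in the shPkm2-labelled libraries, at 0.07 and 0.05 TPM. With limma on log2(TPM + 1) its calls were kept at smaller sizes. These were -0.95 in shPkm1, -1.83 in the shPkm2-labelled libraries and -0.88 between the hairpin groups. Heyl, higher in shPkm1, was lower in the shPkm2-labelled libraries at -1.54. The list had 5, 7 and 5 of its 7 genes called, against 63.1%, 68% and 53% of all tested genes. The median over the 7 was -0.15, -1.19 and -1.04 in these comparisons, against -0.00, 0.01 and 0.00 over all tested genes.

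Counted over the family, 2 of the 3 tested members were called in shPkm1 against shScr, where 63.1% of all 12643 tested genes were called, 31.8% higher and 31.4% lower. In the shPkm2-labelled libraries against shScr 1 of 3 was called, where the background was 68%, with 33.9% higher and 34.2% lower. Between the hairpin groups 2 of 3 were called against a background of 53%, with 25.7% higher and 27.3% lower. With library totals all 3 members passed in the shPkm2-labelled libraries against shScr, where 8797 genes were called. With 3 tested members these counts say nothing particular of the family. With library totals the share of all calls that were higher rose from 50.3% to 65.8% in shPkm1, from 49.8% to 69.3% in the shPkm2-labelled libraries, and from 48.4% to 61.3% between the hairpin groups.

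**Figure D3:**
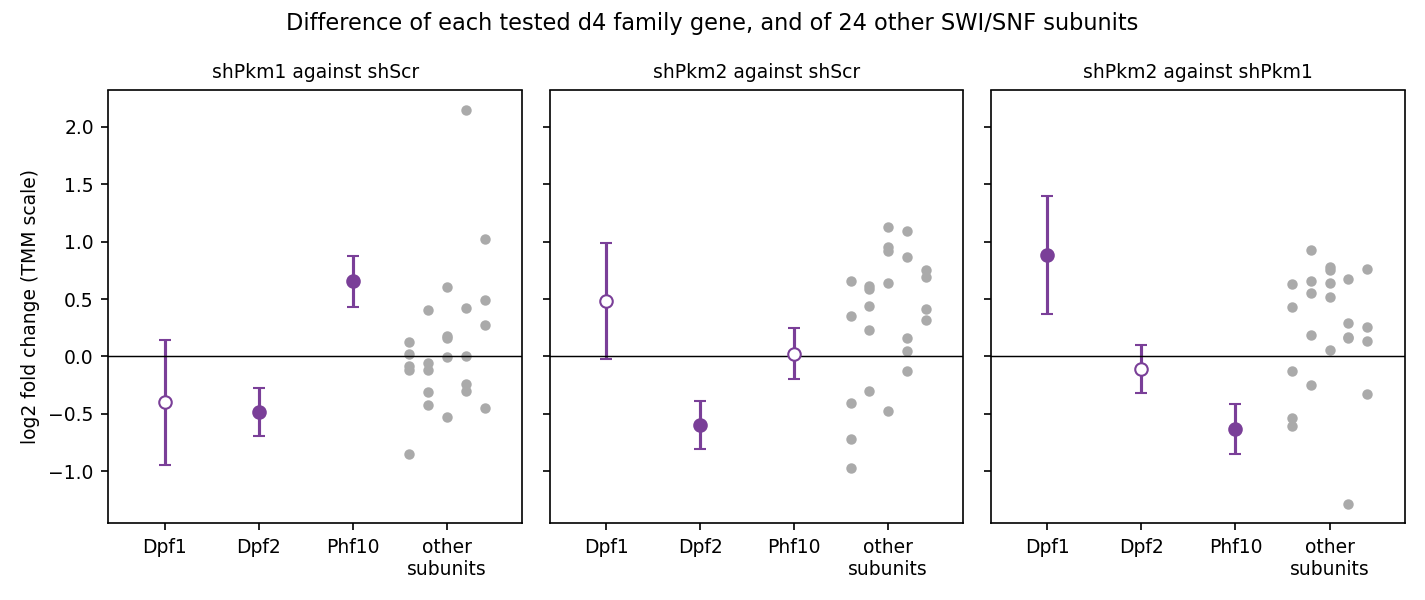
Log2 fold change on the TMM scale of each tested d4 family gene (purple, with its 95% interval; filled where the adjusted p was under 0.05) and of 24 other SWI/SNF subunits (grey, spread sideways for legibility) in 3 comparisons, with shPkm2 as labelled. Dpf2 is at -0.49 and -0.59 against shScr, and Phf10 is at 0.65, 0.02 and -0.63 from left to right.

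Within a library the ratio of 2 members needs no scaling between libraries. Phf10 over Dpf2 in TPM was 1.03 and 0.961 in shScr, 2.17 and 2.18 in shPkm1, and 1.56 and 1.46 in the shPkm2-labelled libraries. The groups do not overlap, which was not counted for other pairs of genes, and the highest ratio was in shPkm1. Phf10 made up 48.5% ± 0.657 of the summed TPM of the family in shScr, 67.3% ± 0.165 in shPkm1 and 57.9% ± 1.16 in the shPkm2-labelled libraries (SD, n = 2). Dpf2 made up 48.8% ± 1.60, 31.0% ± 0.0593 and 38.3% ± 1.05. The summed TPM was 128 ± 1.65, 190 ± 11.4 and 150 ± 4.48. These ratios and shares are given as a description, and no test of them was run.

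**Figure D4:**
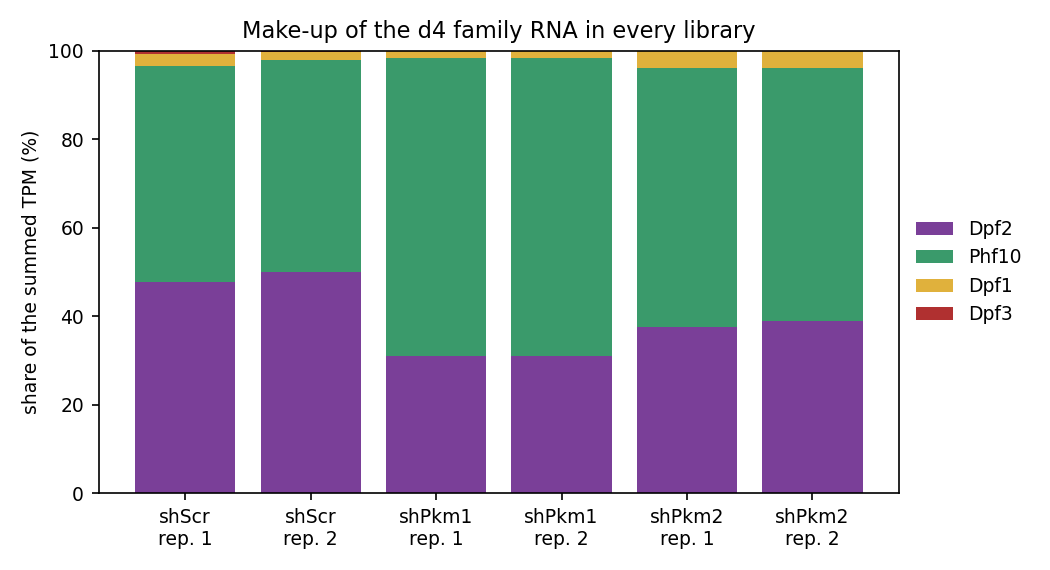
Share in percent of each member in the summed TPM of the 4 d4 family genes, for every library, with shPkm2 as labelled. Dpf2 and Phf10 hold similar shares in shScr (48.8% and 48.5% on average), and Phf10 holds 67.3% in shPkm1 and 57.9% in the shPkm2-labelled libraries.

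The partners of each d4 subunit in its complex were examined next. For cBAF these are the DNA-binding subunits Arid1a and Arid1b. Arid1a stood at 11.5 and 15.4 TPM in shScr, 21.0 and 19.4 TPM in shPkm1, and 39.4 and 33.3 TPM in the shPkm2-labelled libraries. It was higher in these than in shScr by a log2 change of 0.95 and than in shPkm1 by 0.78, both called by edgeR, while Arid1b had no call in any of the 3 comparisons. The summed TPM of Dpf1, Dpf2 and Dpf3 was 66.1 in both control libraries, 64.9 and 59.1 in shPkm1, and 63.2 and 62.9 in the shPkm2-labelled libraries. Over the summed TPM of Arid1a and Arid1b this gave ratios of 2.98 and 2.32, 1.96 and 1.80, and 1.08 and 1.33. The ratio was lower in every library of the hairpin groups than in either control library.

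For PBAF the partners are Arid2, the polybromo protein Pbrm1 and the bromodomain protein Brd7. Arid2 was higher in shPkm1 than in shScr by a log2 change of 0.50 and Pbrm1 by 0.61, near the 0.65 of Phf10, whereas Brd7 had no call (0.13). Arid2 was higher in the shPkm2-labelled libraries by 0.75 and Pbrm1 by 1.12, where Phf10 had no call. Brd7 was lower there on the TMM scale (-0.41), but its sign turned with limma on log2(TPM + 1), to 0.04 (adjusted p = 0.724). Phf10 over Pbrm1 in TPM was 5.81 and 6.23 in shScr, 5.98 and 6.53 in shPkm1, and 2.67 and 2.98 in the shPkm2-labelled libraries. Over Arid2 it was 11.9 and 10.6 in shScr, 12.4 and 12.6 in shPkm1, and 6.28 and 7.34 in the shPkm2-labelled libraries. Over Brd7 it was 1.09 in both control libraries, 1.62 and 1.51 in shPkm1, and 1.52 and 1.43 in the shPkm2-labelled libraries. The ratio to Pbrm1 overlapped between shScr and shPkm1, that to Arid2 was slightly higher in both shPkm1 libraries than in either control, and the ratio to Brd7 was above both controls in all 4 hairpin libraries.

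The ncBAF subunits served as a complex without a d4 protein. Bicral rose by a log2 change of 1.02 in shPkm1 and 0.69 in the shPkm2-labelled libraries, and Brd9 by 0.41 and 0.59. Bicra was lower in shPkm1 on the TMM scale (-0.30), turned to 0.10 with limma on log2(TPM + 1) (adjusted p = 0.594), and had no call in the shPkm2-labelled libraries (-0.13). Ss18, which lies in cBAF and ncBAF, was higher in the shPkm2-labelled libraries than in shScr by 0.92 and than in shPkm1 by 0.76, and had no call in shPkm1 (0.16), while its paralogue Ss18l1 had no call in any comparison. Of all 27 other SWI/SNF subunits listed, 24 were tested. In shPkm1 6 were higher and 6 lower, led by the ATPase Smarca2 at 2.15 and Bicral upward and by Smarcd3, the muscle form of BAF60, at -0.85 and Bcl7c at -0.53 downward. In the shPkm2-labelled libraries 15 were higher and 5 lower, with Pbrm1 at 1.12 and Smarcd1 at 1.10 at one end and Smarcd3 at -0.97 and Bcl7a at -0.72 at the other. Between the hairpin groups 11 were higher and 4 lower, with Actl6a at 0.93 and Arid1a at 0.78 against Smarca2 at -1.28 and Bcl7a at -0.61. Their medians were -0.00, 0.42 and 0.27, against -0.00, 0.01 and 0.00 over all tested genes. The calls made up 12 of 24, 20 of 24 and 15 of 24 subunits, against 63.1%, 68% and 53% of all tested genes. With library totals the counts were 10 higher and 2 lower, 18 and 2, and 14 and 3, and with limma on log2(TPM + 1) they were 13 and 1, 18 and 1, and 11 and 3. On the TPM scale Bcl7c lost its shPkm1 call at -0.09 (adjusted p = 0.471 with limma) and Bcl7a its call in the shPkm2-labelled libraries at -0.23 (adjusted p = 0.156 with limma). Smarcd3 kept both calls there at -0.45 and -0.51, and Smarca2 its fall between the hairpin groups at -0.59. Among the called subunits, the sign turned on the TPM scales for Bicra and Actl6a in shPkm1 and for Brd7, Bcl7b and Bcl7c in the shPkm2-labelled libraries, Bcl7b with library totals too.

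Kat6a and Kat6b are histone acetyltransferases that also carry tandem PHD fingers. Kat6a was higher than in shScr by 0.40 in shPkm1 and 0.87 in the shPkm2-labelled libraries, and Kat6b by 0.87 and 0.96. Among 5 other acetyltransferases, Kat7, Ep300, Crebbp, Kat2a and Kat2b, 2 were higher and 1 lower in shPkm1 (Kat2b at 0.49, Ep300 at 0.39 and Kat2a at -0.33), where 63.1% of all genes were called. The sign of Kat2a turned with limma on log2(TPM + 1), to 0.07 (adjusted p = 0.638). Of these, 2 were higher in the shPkm2-labelled libraries, Ep300 at 0.80 and Kat7 at 0.26, and 0 were lower, against 68% of all genes called. Between the hairpin groups 3 were higher and 1 lower, against 53% of all genes called, with Kat2a at 0.49, Ep300 at 0.40 and Kat7 at 0.39 upward and Kat2b at -0.28 downward. The Kat2b call was lost with library totals, at -0.15 (edgeR adjusted p = 0.308), and with limma on log2(TPM + 1), at -0.15 (adjusted p = 0.418).

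The genes with the most similar pattern were found by the root mean square distance between centred log2 CPM profiles over the 6 libraries, among 10715 genes. For Dpf2 they were Bap1 (0.0204), Zfp275 (0.0210) and Mrps30 (0.0315). For Phf10 they were Sqle (0.0363), Rab3d (0.0604) and Tbc1d12 (0.0633). For Dpf1 they were Mpp6 (0.0888), Dclre1b (0.116) and Fubp1 (0.117). The median distance of all candidates was 0.401 from Dpf2, 0.460 from Phf10 and 0.534 from Dpf1. The named genes were picked as the nearest, so their distances are a description. Dpf3 was too low for this measure.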

How the data were processed

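RNA was measured in 6 libraries. Per the file headers, the authors deposited 1 row per RefSeq transcript with an estimated count, an FPKM and a TPM per library. Of the deposited estimated counts above 0, 16.5% to 17.7% per library are exactly whole as printed (no tolerance), and the deposited TPM values, scaled by the authors to transcript length, sum to between 999999 and 1000000 per library. The submitters' processing notes name HISAT, StringTie, Bowtie, RSEM, DESeq2 and mm10; their roles, versions and strandedness are not given in the sources used here. The 6 FPKM and 9 group-mean columns were not used.

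Groups came from the sample titles. Estimated counts were summed per NCBI gene, rounded and tested with edgeR 4.0.16 (R 4.3.3): filterByExpr (minimum count 10), TMM, and 1 quasi-likelihood fit of all 6 libraries, two-sided, with Benjamini-Hochberg adjustment over 12643 genes (threshold 0.05). Transcripts (33433) were tested likewise, and their usage with diffSpliceDGE over 28695 transcripts. The 113 genes without a symbol held at most 0.148% of counts. The floor was 3 counts. Intervals are 95% intervals of the fit. Alternatives were other scalings and filters, DESeq2 1.42.0, fits of 2 groups, a replicate block, leaving out each library, and limma 3.58.1 on log2(TPM + 1) and log2(TPM + 0.1). limma's diffSplice and the Dpf3 fits without a filter were added after seeing the data. On simulated counts for shPkm1 against shScr, 95% of 100 genes changed by a log2 of 1 and 44% of 100 changed by 0.5 were called, and 4 of 12041 unchanged genes. For usage 64% of 100 and 6% of 100 were called, and 7 of 23556 unchanged transcripts. The simulated counts were drawn around the shScr means in every group, with 1 biological coefficient of variation of 0.085 for genes and transcripts alike. They held no error in the division of reads between transcripts and no wider spread in shScr. The rates thus describe that setting and do not carry over to the tests of these libraries.

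The members and lists were chosen with earlier results of these data known. All members are reported, and their transcript rows singly or by range. Of each list other than the cell type markers, up to 2 largest rises and falls among called genes averaging 50 or more counts are named (all genes of lists of up to 5). The 3 nearest patterns per tested member are named too. Cell type markers are given as sums or calls where they were set beside a member. The 6 adipocyte markers were set beside none, and summed to 7.63 and 8.03 TPM in shScr, 21.6 and 22.7 in shPkm1, and 23.1 and 19.8 in the shPkm2-labelled libraries. Of these, Adipoq, Plin1 and Lep had at most 3 counts in every library.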

Additional observations from a re-analysis of the deposited data

How the results depend on the processing

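Across the alternatives no called difference of a d4 gene or of its transcripts changed sign. With limma on log2(TPM + 1) and log2(TPM + 0.1) the Dpf2 difference was -0.087 (adjusted p = 0.483) and -0.089 (0.487) in shPkm1, and -0.13 (0.298) and -0.13 (0.301) in the shPkm2-labelled libraries. In the latter, Dpf1 passed at 0.81 with library totals and at 0.82 and 1.01 with the TPM scales, and Phf10 at 0.35, 0.47 and 0.48. For Dpf1, leaving out 1 library gave -0.77 to 0.067 in shPkm1, 0.11 to 0.95 in the shPkm2-labelled libraries, and 0.83 to 0.93 between them. For NM_001291078.1 (Dpf2 with exon 7) leaving out 1 library gave -1.55 to -1.29 in shPkm1 and -2.03 to -1.36 between the hairpin groups, and its usage there -1.87 to -1.29. For NM_011262.5 it gave 0.46 to 0.76 in shPkm1 and 0.81 to 1.09 in the shPkm2-labelled libraries. Without the filter NM_011262.5 was at 0.61 in shPkm1 (adjusted p = 0.0535). The usage of NM_001291078.1 in shPkm1 passed with limma's diffSplice (-2.02).

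Replicate numbers are shared between groups, and the labels do not say whether same-numbered libraries were prepared together. The deviations of same-numbered libraries correlated at -0.0256, 0.0418 and 0.0527, which cannot decide this. With the replicate block, NM_001291078.1 was at -1.43 (adjusted p = 0.0764) in shPkm1 and -1.67 (0.0716) between the hairpin groups, its usage there at -1.56 (0.160), and NM_011262.5 at 0.61 (0.107) in shPkm1. No other call of a d4 gene changed with the block, but NM_024250.4 lost its call between the hairpin groups (adjusted p = 0.0639) and NM_011262.5 its usage call in the shPkm2-labelled libraries (0.0695). The counts of genes called, 7984, 8602 and 6703 as reported, ranged over the alternatives from 6047 to 8285, 7231 to 8797 and 4939 to 7987, each within 1.5 times of those counts.

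The limits are these. With 2 libraries a group, few degrees of freedom carry the tests, and shScr varied most. Dpf1 and Dpf3 rest on few counts. Relative to the typical gene and relative to all transcripts, Dpf2, Dpf1 and Phf10 give different calls, and the cause was not tested. Dpf2 transcript shares depend on an estimate over 1 short exon.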
